A study of Mus musculus with 6 samples.

Results

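The genes described here encode, in the nucleus, the proteins of the mitochondrial respiratory chain and of ATP synthase. Members were taken by gene symbol: rows whose names begin with Nduf followed by a, b, c, s or v and a digit, Sdh followed by a single letter from a to d, Uqcr, Cox followed by a digit from 4 to 8, or Atp5 followed by a letter. This gave 85 of the 23337 gene rows. The pattern itself uses no measured value, but this group of genes was chosen with earlier results of these data known. By their known products, 82 of the 85 are subunits of complexes I to V, in which the supercomplex factor Cox7a2l was counted with complex IV and Ndufa4 and Ndufa4l2 were placed in complex IV, where the Ndufa4 protein is now assigned. The other 3 symbols (Atp5s, Atp5sl and Cox4nb) name genes whose products are not subunits. A separate list held 53 rows of assembly factors, proteins that help to build the complexes without remaining in them; Atp5sl is in both.

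Oxidative phosphorylation passes electrons from NADH through complex I, or from succinate through complex II, to ubiquinone, then through complex III and cytochrome c to complex IV, which reduces oxygen. Complexes I, III and IV pump protons across the inner mitochondrial membrane, and complex V, the ATP synthase, uses the returning protons to make ATP. Complexes I, III, IV and V also hold subunits encoded by mitochondrial DNA, whereas every subunit of complex II is encoded in the nucleus. Neural precursors rely largely on glycolysis, and dependence on oxidative phosphorylation grows as they become neurons.

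RNA came from the nuclear fraction of cultured neural precursor cells, which were taken from the dorsal forebrain of mouse embryos at embryonic stage E13.5 and studied at passage 6 to 7. All cultures grew on Matrigel with EGF and basic FGF and were harvested below full confluency. Lines 3, 8 and 19 were wild type for Fmr1 (WT), and lines 3, 13 and 16 were labelled Fmr1 knockout (KO), so that each group had 3 libraries. Fmr1 encodes the RNA-binding protein FMRP, and the comparison asks how nuclear RNA differs when it is lost. The submitters' design text describes the lines of each group as independent. A line number common to both groups does not pair the lines, and the p-values measure the spread between lines. Nuclear RNA holds transcripts that are being made, processed or exported, so the values are not levels of cytoplasmic mRNA or of protein.

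Total counts per library ran from 18702738 to 26789522, and 13925 genes passed the filter on low counts and were tested. Fmr1 itself was at 223, 269.8 and 274 CPM (counts scaled to the size of the library) in the WT libraries, and at 371, 188 and 153 CPM in KO lines 3, 13 and 16. The library labelled KO line 3 was thus above every WT library, and Fmr1 RNA was also present in KO lines 13 and 16. Fmr1 was not called (log2 fold change -0.10, SE 0.29, edgeR adjusted p = 0.795). Loss of FMRP cannot be read from these counts. Results are therefore stated for the libraries labelled KO. Xist, the RNA that silences an X chromosome, was at 15465 to 20508 CPM in WT lines 3 and 8 and in KO line 3 and at 1.67 to 81.8 CPM in the others, a split that crosses the genotype labels. By the root mean square difference of log2(CPM + 0.5) over the tested genes, KO line 3 lay 0.43 and 0.48 from KO lines 13 and 16, which lay 0.25 from each other, and WT line 19 lay 0.29 and 0.33 from WT lines 3 and 8, which lay 0.24 apart. Counts are therefore also given without WT line 19 and KO line 3. That fit sets WT lines 3 and 8, high in Xist, against KO lines 13 and 16, low in Xist. Label and Xist level thus cannot be told apart in it. The neural precursor markers Nes, Sox2, Pax6, Vim, Fabp7, Slc1a3, Hes1 and Msi1 were all present. Their summed level was 7370 to 8045 CPM in WT libraries and 5547 to 6747 CPM in libraries labelled KO. Vim (mean 2558 CPM in WT and 1832 CPM in KO) and Slc1a3 were called lower, 25% of the 8, beside 20.4% of all genes. The other 6 were not called, and of the 8 log2 fold changes 5 were negative. Those of Sox2, Pax6 and Msi1 were positive.

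A part of the respiratory chain genes was lower in the nuclei of libraries labelled KO, and all but 1 of the other tested members were not called. Of the 85 members, 78 could be tested; 34 fell and 1 rose at an edgeR adjusted p below 0.05, against 20.4% of all tested genes that fell and 21.8% that rose. Among the 75 tested subunit genes 32 fell and 0 rose, their log2 fold changes ran from -1.91 to 0.05, and their median was -0.46, where the median of all tested genes was 0.01. Every library labelled KO was below every WT library for 31 of the 75, against 25.7% of all tested genes. Beside the 0 that rose, an unadjusted edgeR p under 0.05 was reached by 0 higher and 40 lower subunit genes, and DESeq2 and limma-voom also called 0 higher, in each complex as in all of them together. The 7 subunit rows that were not tested were Ndufs5 and 6 complex IV genes, with at most 29 counts in a library. Since these are bulk samples, fewer cells of a type and less RNA per cell cannot be told apart.

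How many members passed the test depended on single lines, and so did the share of all genes called lower. Without WT line 3 the number of members called lower was 21 (16.2% of all genes tested in that fit), without WT line 8 it was 22 (15.98%) and without KO line 13 it was 19 (15.1%). It was 52 without KO line 16 (18.0%), 39 without WT line 19 (16.5%) and 30 without KO line 3 (27.8%). With WT line 19 and KO line 3 both left out it was 46, against 28.3% of all genes tested in that fit. The median over the 78 members stayed between -0.63 and -0.38 in all of these fits. No p-value is given for the members as a group.

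**Figure D1:**
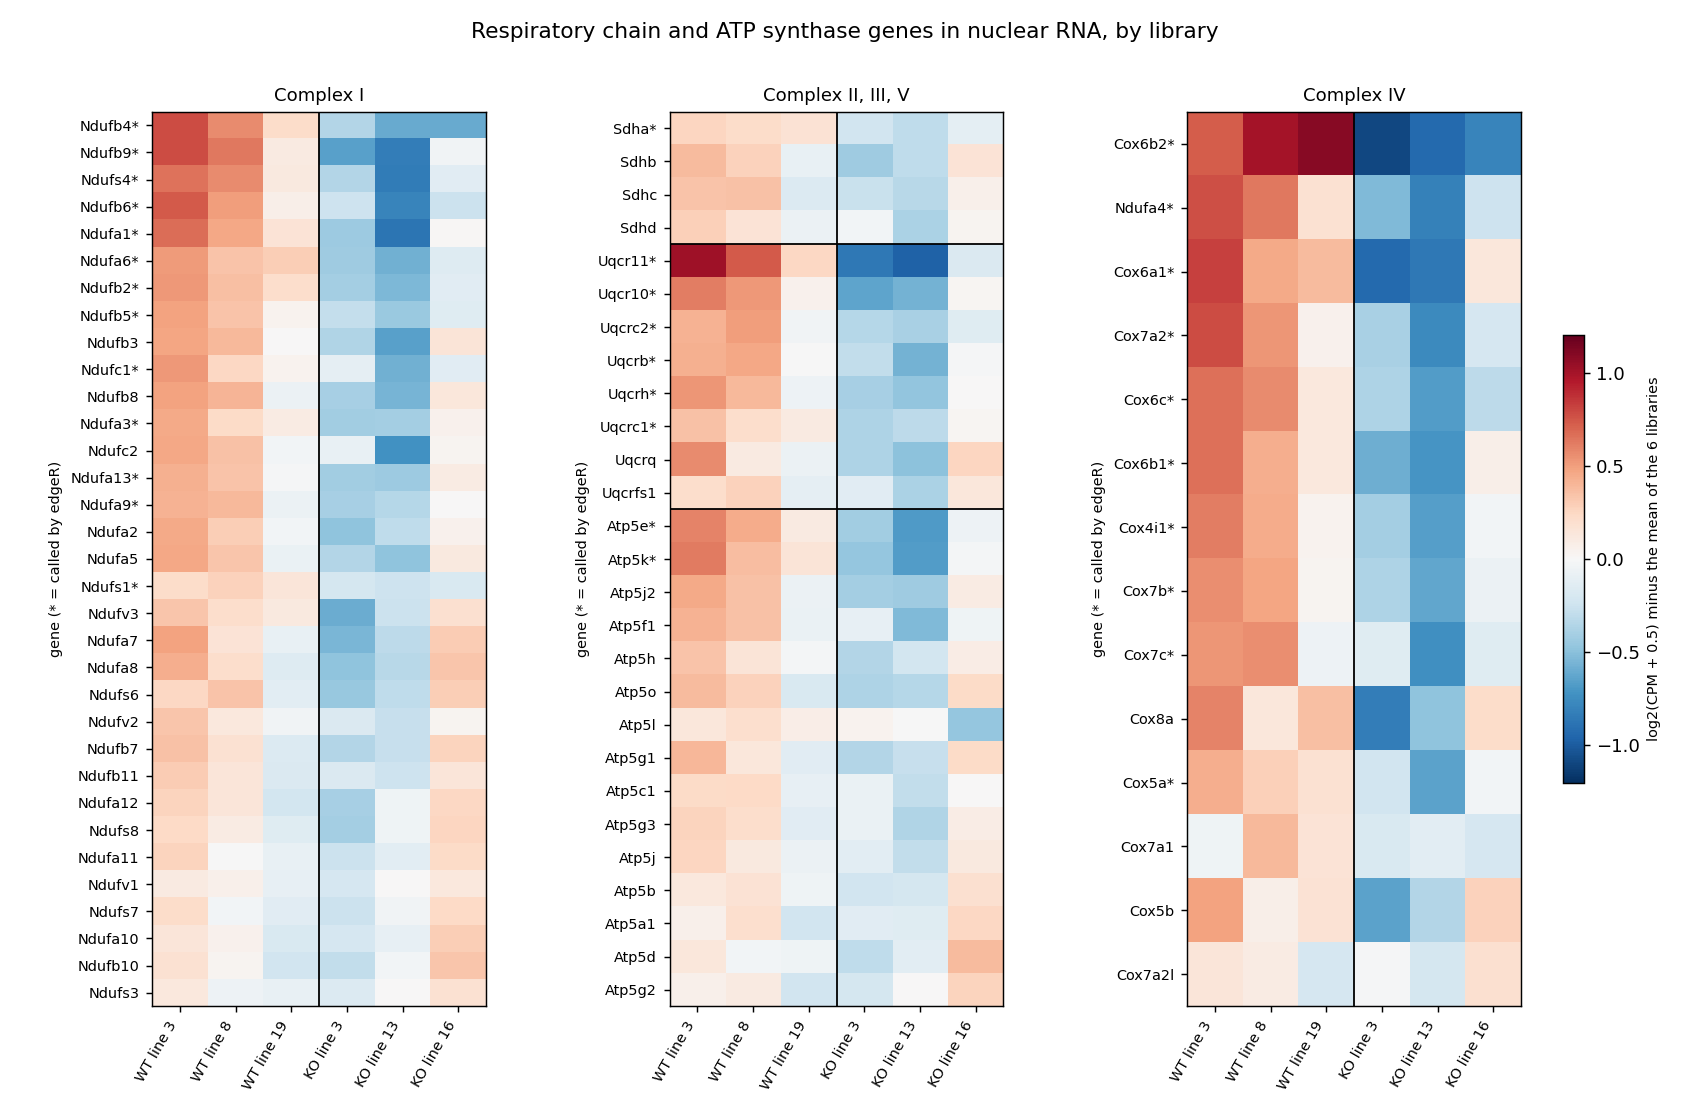
Level of 74 tested subunit genes (rows, grouped by complex and ordered by fold change) in each of the 6 libraries (columns), as log2(CPM + 0.5) minus the mean of the 6 libraries; red is higher, blue is lower, and an asterisk marks a gene called by edgeR. WT lines 3 and 8 are red in most rows, KO lines 3 and 13 are mostly blue, and WT line 19 and KO line 16 mostly lie between them. Of the 75 tested subunit genes, KO line 16 is the highest of the 6 libraries for 11 and the lowest for 3. Cox6b2 is highest in WT line 19.

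The lines did not form 2 even blocks. Each library was summarised by the median, over the 75 subunit genes, of the log2 level minus the mean of the 6 libraries. This median was 0.42, 0.28 and -0.03 in WT lines 3, 8 and 19 and -0.35, -0.38 and 0.07 in KO lines 3, 13 and 16. WT line 3 had the highest level of the 6 libraries for 53 of the 75 genes, and WT line 19 the lowest of the WT lines for 71. KO line 16 was the highest of the libraries labelled KO for 70 genes. KO line 16 was above WT line 19 for 43 of the 75 genes, in 23 of 34 tested genes of complex I, 3 of 4 of complex II, 3 of 8 of complex III, 2 of 14 of complex IV and 12 of 15 of complex V. Over all tested genes, KO line 16 was above WT line 19 for 6925 of 13925. KO line 16 was thus mostly below WT line 19 in complex IV genes and mostly above it in complex V genes. This compares a single library of each label, and genes of a library are not replicates, so it shows no separation by label.

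Many genes of the respiratory chain carry a binding sequence of NRF1, the activator known for driving them, close to their start. RefSeq promoters of build GRCm38.p6, which run from 250 bases before to 50 bases after the start, were found for 67 of the 82 subunit genes. The palindromic NRF1 core, printed in capitals in the stretches shown here and searched on both strands, was in 5 of these promoters (7.46%), against 1.47% of 17492 protein-coding promoters of the same length and 2.28% of 10517 promoters of tested genes. With any base in place of its single A (GCGC, any base, TGCGC, which includes the exact core) it was in 17 (25.4%), against 7.17% of all promoters and 11.2% of those of tested genes. The 4 exact matches that lie before the start are shown, since they split evenly between genes that fell and genes that were not called. Each is given 5′ to 3′ on the strand of the gene, with the core in capitals.
Cox6a1 (called lower), chr5:115349071-115349160, minus strand, core beginning 162 bases before the start: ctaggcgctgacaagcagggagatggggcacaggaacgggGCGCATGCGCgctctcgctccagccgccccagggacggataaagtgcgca
Atp5k (called lower), chr5:108434400-108434489, minus strand, core beginning 50 bases before the start: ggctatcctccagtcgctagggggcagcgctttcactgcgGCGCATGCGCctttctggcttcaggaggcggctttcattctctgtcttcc
Atp5g2 (not called), chr15:102671048-102671129, minus strand, core beginning 42 bases before the start: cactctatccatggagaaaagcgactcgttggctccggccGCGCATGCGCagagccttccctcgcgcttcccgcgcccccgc
Ndufa11 (not called), chr17:56717662-56717751, plus strand, core beginning 60 bases before the start: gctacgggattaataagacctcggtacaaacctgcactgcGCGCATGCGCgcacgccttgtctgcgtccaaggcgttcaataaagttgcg

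The remaining exact match, in Uqcrc1, which was called lower, lies after the start. Of the 26 subunit genes called lower that had a promoter, 3 held the exact core and 6 the core with any base at the A; of the 38 not called, 2 and 10 did. The ETS core CCGGAAG, bound by GABP, was in 7 of the 26 and 9 of the 38, against 12.9% of all promoters and 19.3% of those of tested genes. The YY1 core was in 2 of the 26 and 3 of the 38, against 1.41% and 2.28%. These shares were not compared by a test. Of 47 assembly factors with a promoter, 19 held the ETS core and 6 the NRF1 core with any base at the A. A match describes the letters in the window only.

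Complex I, the NADH dehydrogenase, matched 35 rows, of which 34 were tested. Of these 13 fell (38.2%, beside 20.4% of all genes) and 0 rose, and the median log2 fold change was -0.46. The 7 core subunits, which carry the flavin and the iron-sulphur clusters along the matrix arm, had a median of -0.12. Of these, 1 fell: Ndufs1, the largest core protein of the NADH-oxidising end. Ndufs1 was at 173, 179.9 and 164 CPM in WT lines 3, 8 and 19 and at 128, 125 and 130.4 CPM in KO lines 3, 13 and 16, so that the groups did not overlap (log2 fold change -0.43, SE 0.09, edgeR adjusted p = 0.0060). The other 6 had log2 fold changes from -0.28 to 0.02 and overlapping levels.

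Accessory subunits of complex I surround this core and are needed for its assembly and stability. Of 27 tested, 12 fell (44.4%, beside 20.4% of all genes), and the median log2 fold change of the 27 was -0.50. Ndufb4, at the far end of the membrane arm, was the lowest of the complex. Its level was 8.08, 6.89 and 5.31 CPM in the WT lines and 3.42, 2.79 and 2.79 CPM in the lines labelled KO, with no overlap (log2 fold change -1.18, SE 0.21, edgeR adjusted p = 0.0020). For Ndufb4, 37.0% of the 50-base stretches of its transcript also occur in the processed pseudogene Ndufb4c, so its reads may be split. Ndufb9, another membrane arm subunit, was at 68.4, 61.5 and 42.6 CPM against 25.1, 22.0 and 38.5 CPM (log2 fold change -1.01, SE 0.23, edgeR adjusted p = 0.0083). It lost the call without KO line 3, and its exons overlap the gene Gm49356 on the same strand. The level of Ndufb9 in KO line 16 came close to WT line 19 without crossing it.

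Ndufs4, an accessory subunit of the NADH-oxidising end whose loss in mice is a model of Leigh syndrome, was at 56.6, 53.2 and 38.9 CPM in the WT lines and 28.0, 19.8 and 32.5 CPM in the lines labelled KO. Its groups did not overlap (log2 fold change -0.89, SE 0.20, edgeR adjusted p = 0.0075). Ndufb6, a membrane arm subunit, was at 43.7, 37.0 and 27.3 CPM against 21.9, 14.8 and 21.7 CPM (log2 fold change -0.89, SE 0.20, edgeR adjusted p = 0.0080). Part of the Ndufb6 transcript (34.1% of its 50-base stretches) is also in Smim27 on the opposite strand. The other accessory genes that fell were Ndufa1, Ndufa3, Ndufa6, Ndufa9, Ndufa13, Ndufb2, Ndufb5 and Ndufc1, with log2 fold changes from -0.88 to -0.50. Ndufa9 and Ndufa13 were called although KO line 16 was above WT line 19 for both. Ndufa1, Ndufa3, Ndufa9, Ndufa13 and Ndufc1 each lost the call without WT line 3, WT line 8 or KO line 13, and Ndufa13 also without KO line 3 and with a filter of 1 CPM in 3 libraries.

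Other subunits of the same arms did not pass the test. Ndufc2, a membrane arm subunit at 91.0 CPM per kilobase of exon in WT and 64.3 in KO, had a log2 fold change of -0.50 with overlapping groups (SE 0.21, edgeR adjusted p = 0.0775). The 2 genes closest to 0 were Ndufa10 (log2 fold change 0.00, SE 0.15, edgeR adjusted p = 0.997) and Ndufb10 (0.02, SE 0.18, edgeR adjusted p = 0.949), both accessory subunits. For Ndufa10 the highest of the 6 libraries was KO line 16, at 68.0 CPM. Ndufs5, the remaining accessory gene, had no counts in any library; 31.1% of its 50-base stretches also occur in the processed pseudogene BC002163, whose own row held 4 to 12 counts.

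Complex II, succinate dehydrogenase, also belongs to the tricarboxylic acid (TCA) cycle. Its 4 genes were all tested. Of the 4, 1 fell, a share close to the 20.4% of all genes that fell, and 0 rose. The median log2 fold change was -0.37. Sdha, the flavoprotein that oxidises succinate, was at 352, 343 and 332 CPM in the WT lines and at 252, 238 and 271 CPM in the lines labelled KO. Its WT values lay close together and well above the others (log2 fold change -0.43, SE 0.10, edgeR adjusted p = 0.0080). Sdhb, the iron-sulphur subunit, and the membrane anchors Sdhc and Sdhd had log2 fold changes of -0.38, -0.37 and -0.25, close to that of Sdha, but a wider spread and overlapping groups (edgeR adjusted p = 0.122, 0.108 and 0.191). All 4 were called lower without WT line 19 and KO line 3 together (28.3% of all genes in that fit), and 3 of the 4 without KO line 16 (18.0%).

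Complex III, the cytochrome bc1 complex, had 6 of 8 genes lower (75.0%, beside 20.4% of all genes), 0 higher and a median log2 fold change of -0.59. Uqcr11, one of its smallest subunits, had the largest change: 57.2, 47.2 and 33.5 CPM in the WT lines against 15.3, 14.1 and 24.9 CPM, a 2.54-fold lower level (log2 fold change -1.34, SE 0.25, edgeR adjusted p = 0.0031). Uqcr10, another small subunit, was at 55.1, 51.6 and 37.2 CPM against 23.0, 24.0 and 36.6 CPM. Its log2 fold change was -0.78 (SE 0.21, edgeR adjusted p = 0.0156), and KO line 16 nearly reached WT line 19.

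The core proteins Uqcrc1 and Uqcrc2, which face the matrix, both fell. Uqcrc2 was at 139, 148 and 101 CPM against 81.9, 79.3 and 94.3 CPM (log2 fold change -0.60, SE 0.15, edgeR adjusted p = 0.0124), and Uqcrc1 had a log2 fold change of -0.44. Uqcrb and the hinge protein gene Uqcrh fell by 0.60 and 0.58 on the log2 scale; Uqcrb was not called after the length and GC correction described below, at -0.22. Of the stretches of the Uqcrb transcript, 43.4% are shared with pseudogenes and other genes. Uqcrfs1, the catalytic Rieske iron-sulphur protein, and Uqcrq were not called, with log2 fold changes of -0.25 and -0.39. The count of 6 rested on several libraries. It was 2 without WT line 3 (16.2% of all genes were lower in that fit). It was 1 without WT line 8 (15.98%) or KO line 13 (15.1%), and 6 with WT line 19 and KO line 3 both left out (28.3%). The calls of Uqcr10, Uqcrc1, Uqcrc2, Uqcrb and Uqcrh were each lost without KO line 13, each also without WT line 8, and all but Uqcrc2 without WT line 3.

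Complex IV, cytochrome c oxidase, had the lowest median of the complexes. Of its 20 rows 14 were tested, 10 fell (71.4%, beside 20.4% of all genes) and 0 rose, and the median log2 fold change was -0.73. Among the 11 widely expressed forms 9 fell, with no overlap between the groups for any of the 9, and the median was -0.74. Of all tested genes, 25.7% had every library labelled KO below every WT library. Without KO line 13 the number called in the complex was 6 (15.1% of all genes were lower in that fit). It was 8 with WT line 19 and KO line 3 both left out (28.3%). Differences between complexes were described by these counts and medians and were not tested.

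Ndufa4, found in complex I preparations before it was assigned to complex IV, was at 119, 108 and 79.1 CPM in the WT lines and 47.9, 39.5 and 58.3 CPM in the lines labelled KO (log2 fold change -1.07, SE 0.19, edgeR adjusted p = 0.0020). Even the lowest WT line was above the highest line labelled KO. Cox7a2, the widely expressed form of COX7A, was at 101, 84.3 and 60.5 CPM against 44.4, 34.1 and 50.6 CPM (log2 fold change -0.93, SE 0.20, edgeR adjusted p = 0.0065). Cox6c, a small transmembrane subunit, was at 77.98, 72.7 and 53.6 CPM against 37.7, 30.6 and 39.4 CPM (log2 fold change -0.92, SE 0.16, edgeR adjusted p = 0.0022). Cox4i1, a regulatory subunit that binds ATP, was lower by 0.74 on the log2 scale, and Cox5a, Cox7b and Cox7c by 0.59, 0.72 and 0.70. Cox4i1 lost its call without KO line 13, Cox7b after the length and GC correction, and Cox7c in that fit and without WT line 3, WT line 8 or KO line 13.

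Cox6a1, the gene whose promoter is shown above, was at 146, 113 and 107 CPM in the WT lines and at 43.1, 45.1 and 90.5 CPM in the lines labelled KO. The groups did not overlap, but KO line 16 came closer to the WT lines than the other 2 did (log2 fold change -1.04, SE 0.27, edgeR adjusted p = 0.0147), and the call was lost without WT line 3, KO line 3 or KO line 13, and without both WT line 19 and KO line 3. Per kilobase of exon Cox6a1 was the most abundant complex IV gene in WT lines, at 174 CPM, and was at 84.8 CPM in the lines labelled KO. Cox8a followed it per kilobase, at 163 and 102 CPM. Cox8a itself was not called (log2 fold change -0.68, SE 0.25, edgeR adjusted p = 0.0526), with KO line 16 above WT line 8, though it was called lower in 8 of the 17 alternatives, and neither was Cox5b (log2 fold change -0.45, SE 0.22, edgeR adjusted p = 0.140).

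Several complex IV subunits have alternative forms restricted to a tissue or condition, and 1 of these fell more than any other member. Cox6b2, known as the testis form of COX6B, was at 45.7, 55.1 and 58.9 CPM in WT lines 3, 8 and 19 and at 12.6, 14.1 and 15.6 CPM in KO lines 3, 13 and 16. It lies at chr7:4751792-4753094 on the minus strand. The level was 3.77-fold lower in the lines labelled KO (log2 fold change -1.91, SE 0.14, edgeR adjusted p = 3.08e-05), and the call held in every fit, with log2 fold changes from -2.02 to -1.76. Cox6b2 did not follow the order of the lines seen in most members, since WT line 19 had its highest level. Cox6b1, the widely expressed form, was at 109, 92.9 and 75.1 CPM against 45.4, 41.7 and 71.7 CPM (log2 fold change -0.80, SE 0.22, edgeR adjusted p = 0.0165). The call of Cox6b1 was lost in the same 4 fits as that of Cox6a1. Cox6b2 made up 29.5%, 37.2% and 44.0% of the counts of both COX6B genes in the WT lines and 21.8%, 25.3% and 17.8% in the lines labelled KO. The lowest Wilson 95% bound in a WT line was 28.2% and the highest in a line labelled KO 27.7%; these intervals cover counting error only. The share was 27.3% against 15.0% on average when counts were divided by exon length.

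**Figure D2:**
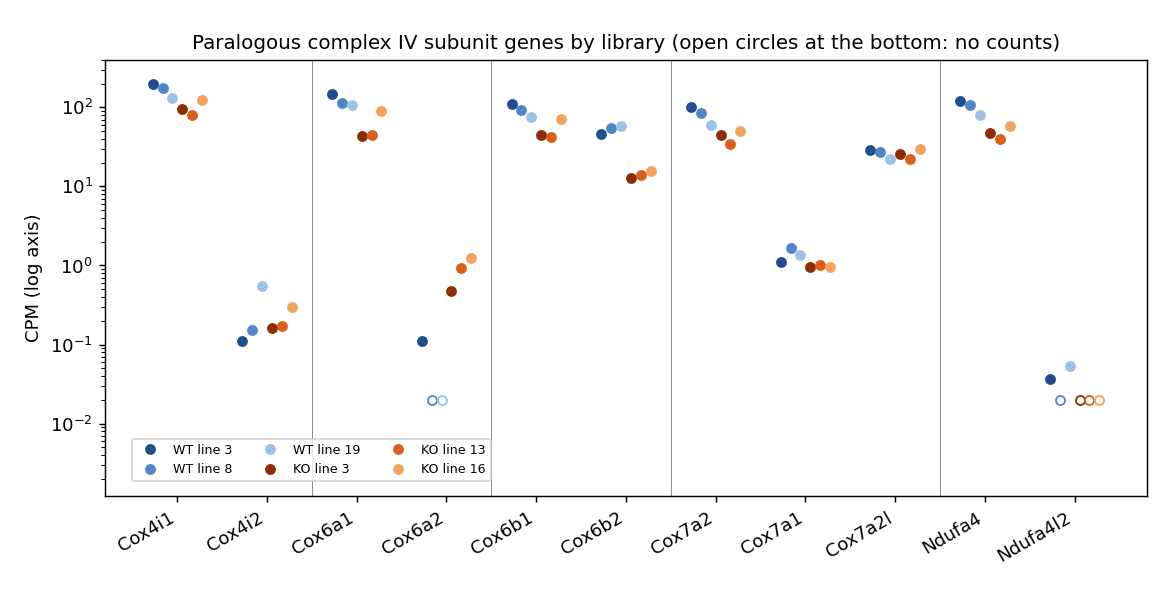
CPM on a log axis of the widely expressed and the alternative forms of complex IV subunits in each of the 6 libraries, 1 point per library, with a vertical line between subunits; open circles mark libraries without counts and are drawn at an arbitrary low position. Cox6b2 falls from 45.7 to 58.9 CPM in WT lines to 12.6 to 15.6 CPM in lines labelled KO, Cox7a2l overlaps between the groups, and Cox6a2 has counts in every library labelled KO but in 1 WT library.

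Cox7a2l, which joins complexes III and IV into supercomplexes, was at 28.5, 27.6 and 22.3 CPM in the WT lines and 25.4, 22.2 and 29.5 CPM in the lines labelled KO. It was not called (log2 fold change -0.02, SE 0.15, edgeR adjusted p = 0.909), and its sign turned with the length and GC correction. Its relative Cox7a2 fell, and Cox7a2l made up 21.8% to 26.5% of the COX7A counts in WT lines and 36.0% to 38.7% in lines labelled KO. The highest Wilson 95% bound in a WT line was 28.8%, and the lowest in a line labelled KO was 33.4%. The muscle form Cox7a1 was near 1 CPM in all libraries, with a log2 fold change of -0.48 that was not called (SE 0.26, edgeR adjusted p = 0.168).

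Cox6a2, the heart and skeletal muscle form of COX6A, had 3, 0 and 0 counts in the WT lines and 9, 22 and 29 counts in the lines labelled KO. It did not pass the filter on low counts, and was called higher when no filter was applied. Its counts were 1.10%, 2.02% and 1.36% of the COX6A counts in the lines labelled KO, where the lowest Wilson 95% bound was 0.582%. Its exons overlap those of Itgad on the opposite strand over a short stretch, which holds 3.3% of its 50-base stretches. The other alternative forms were close to the floor of 3 counts, which was worth 0.110 to 0.163 CPM: Cox4i2, the form known from lung and hypoxia, had 3 to 10 counts per library, Cox8b and the hypoxia-induced Ndufa4l2 had at most 2, and Cox7b2 and Cox8c had none in any library.

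Complex V, ATP synthase, matched 15 rows. All 15 were tested, 2 fell and 0 rose, a share of 13.3% beside the 20.4% of all genes that fell, and the median log2 fold change was -0.26. The catalytic head (F1) had a median of -0.15 over 5 genes, and the membrane part with the stalk and accessory subunits (Fo) -0.31 over 10. Both genes that fell encode small subunits. Atp5e, the epsilon subunit of the central stalk, was at 40.7, 36.6 and 28.7 CPM in the WT lines and 19.9, 16.5 and 25.6 CPM in the lines labelled KO (log2 fold change -0.77, SE 0.19, edgeR adjusted p = 0.0097). Atp5k, subunit e of the membrane part, whose promoter is shown above, was at 37.6, 31.6 and 27 CPM against 17.5, 15.1 and 23.9 CPM (log2 fold change -0.77, SE 0.19, edgeR adjusted p = 0.0109). Neither overlapped between the groups.

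The alpha and beta subunits, which form the catalytic sites, had the highest CPM per kilobase of exon of complex V in both groups. Atp5a1, the alpha subunit, was at 555, 609 and 453 CPM in the WT lines and 482, 480.3 and 632 CPM in the lines labelled KO, with full overlap (log2 fold change -0.02, SE 0.15, edgeR adjusted p = 0.930). Atp5b, the beta subunit, was at 781, 806 and 693 CPM against 609, 621 and 821 CPM (log2 fold change -0.15, SE 0.14, edgeR adjusted p = 0.407). For both the highest library was KO line 16. Atp5d, the delta subunit of the central stalk, was not called (log2 fold change -0.01, SE 0.17, edgeR adjusted p = 0.969).

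The proton-carrying ring of complex V is made of subunit c, which is encoded by Atp5g1, Atp5g2 and Atp5g3; the mature proteins are the same. Atp5g3 gave most of their counts, 78.8% in WT lines and 77.9% in lines labelled KO on average, and Atp5g2 6.93% and 8.32%. None of these genes was called, with log2 fold changes of -0.26, 0.05 and -0.23. The other uncalled genes of the membrane part and stalk, Atp5f1, Atp5h, Atp5j, Atp5j2, Atp5l and Atp5o, had log2 fold changes from -0.50 to -0.20. Of the 50-base stretches of Atp5l, 84.8% are also found in other genes, mainly processed pseudogenes, which makes its level of 3.0 to 5.07 CPM uncertain. Those of Atp5o and Atp5h were shared to 50.3% and 47.9%. With WT line 19 and KO line 3 both left out, 7 complex V genes were called lower (28.3% of all genes in that fit). Without KO line 16 there were 6 (18.0%), and without WT line 19 there were 4 (16.5%).

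Summed over its genes, each complex was lower on average in the libraries labelled KO. The mean summed CPM in KO over that in WT was 0.78 for complex I, 0.76 for complex II, 0.68 for complex III, 0.57 for complex IV and 0.88 for complex V. Complex IV summed to 1233, 1077 and 910.1 CPM in the WT lines and 559, 501 and 780.0 CPM in the lines labelled KO, without overlap. The sums of complex II (531 to 623 CPM in WT, 407 to 500 CPM in KO) did not overlap either. Neither did those of complex III (518 to 705 and 378 to 513 CPM). Those of complex I did, at 1424 to 1832 CPM in WT and 1154 to 1515 CPM in KO. Complex V summed to 2422, 2434 and 1968 CPM against 1849, 1791 and 2386 CPM, where KO line 16 was close to WT lines 3 and 8. Such sums are weighted by the abundant genes, and for complex V mostly by Atp5a1 and Atp5b.

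Within each library the sums were also divided by that of complex V. The ratio of complex IV to complex V was 0.509, 0.443 and 0.463 in the WT lines and 0.302, 0.280 and 0.327 in the lines labelled KO. That of complex III was 0.263 to 0.291 in WT and 0.211 to 0.215 in KO. For complex I it was 0.691 to 0.756 and 0.624 to 0.655, and for complex II 0.247 to 0.270 and 0.210 to 0.234. None of these 4 ratios overlapped between the groups, and KO line 16, which was among the higher libraries in complex V, lay on the side of its label in all of them. The 4 ratios share a denominator, so a high complex V sum lowers all of them in a library. They are not independent of each other. The ratio of complex I accessory to core subunits did overlap, at 1.28 to 1.54 in WT and 1.05 to 1.33 in KO. That of the Fo to the F1 genes of complex V did not, at 0.386 to 0.445 in WT and 0.341 to 0.373 in KO.

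**Figure D3:**
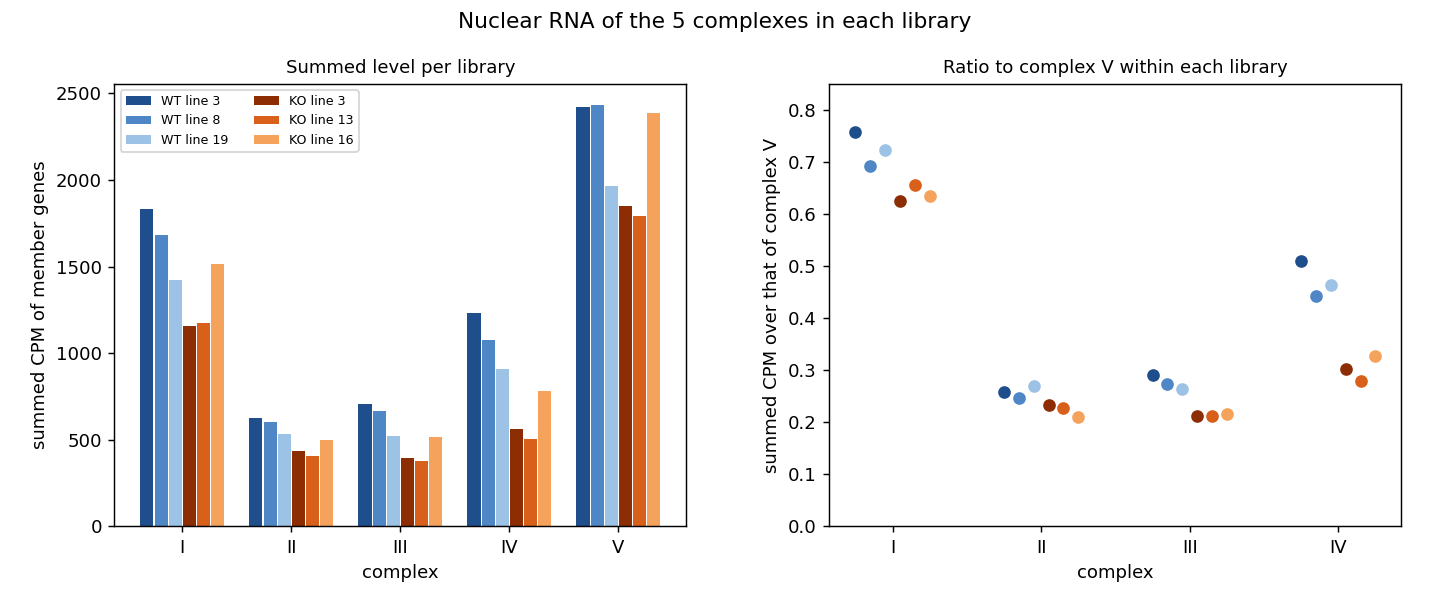
Left, summed CPM of the genes of each complex in each of the 6 libraries (bars, from 0). Right, the summed CPM of complexes I to IV divided by that of complex V in the same library (points). KO line 16 reaches 2386 CPM in complex V, within the WT range, while every ratio to complex V is lower in the libraries labelled KO than in any WT library; for complex IV these are 0.280 to 0.327 against 0.443 to 0.509.

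Assembly factors moved both ways. Of 53 rows 51 were tested, 14 fell (27.5%, beside 20.4% of all genes) and 3 rose (5.88%, beside 21.8%), and the median log2 fold change was -0.31. By complex, 4 of 17 tested factors of complex I fell and 1 rose, 2 and 0 of 4 did so for complex II, 2 and 1 of 6 for complex III, 4 and 1 of 20 for complex IV, and 2 and 0 of 4 for complex V. The median for complex IV factors was -0.05, where that of the complex IV subunits was -0.73. The difference between subunits and assembly factors was not tested. Without WT line 3 or KO line 13 the number of factors that were lower was 4 (16.2% and 15.1% of all genes in those fits). Without WT line 8 it was 8 (15.98%), and with WT line 19 and KO line 3 both left out it was 23 (28.3%). The number that were higher was 1 without WT line 3, WT line 8, WT line 19 or KO line 13, and 2 without KO line 16.

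**Figure D4:**
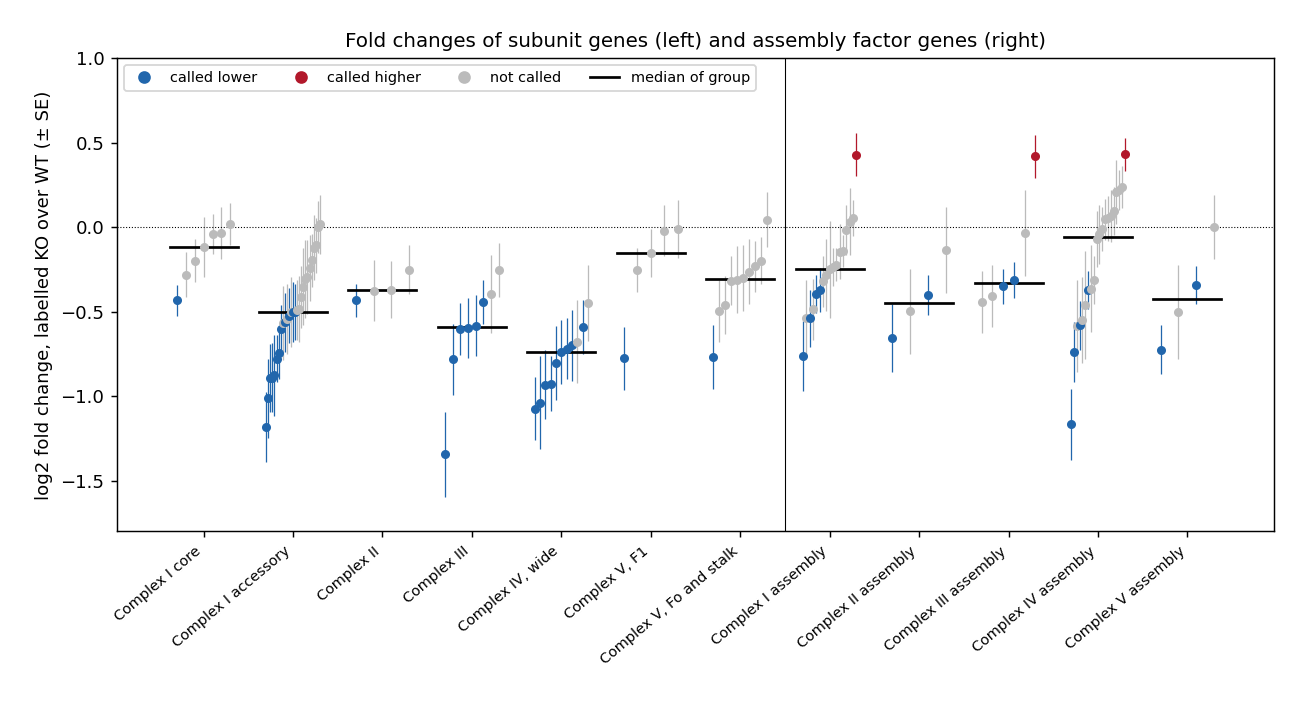
Log2 fold change of each tested gene (points, bars ± SE), libraries labelled KO over WT, for subunits (left of the vertical line) and assembly factors (right), by complex; black bars are group medians, and the alternative forms of complex IV and Cox7a2l are not drawn. The subunit medians run from -0.12 in the complex I core to -0.74 in complex IV, and the 3 genes called higher are assembly factors.

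Among the factors of complex IV, Cox14, listed as 2310016M24Rik, which is needed for the synthesis of the mitochondrially encoded subunit COX1, was at 36.3, 29.4 and 30.3 CPM in the WT lines and 11.3, 11.9 and 19.5 CPM in the lines labelled KO. This was the largest change of any assembly factor (log2 fold change -1.17, SE 0.21, edgeR adjusted p = 0.0025). Cox17, the copper chaperone, fell by 0.74 and Pet100, listed as 2900053A13Rik, by 0.58 on the log2 scale, the latter with a call lost without WT line 3. Cox15, which makes the haem of the complex, rose: 37.7, 37.7 and 35.4 CPM in WT against 51.3, 48.2 and 49.9 CPM, without overlap (log2 fold change 0.43, SE 0.10, edgeR adjusted p = 0.0072). The 2 factors of complex IV that were not tested, Sco2 and Gm20571 (Pet117), were without counts in all libraries.

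Ndufaf4, a factor of complex I, was at 131, 121 and 113 CPM in the WT lines and 99.6, 60.01 and 55.96 CPM in the lines labelled KO (log2 fold change -0.76, SE 0.21, edgeR adjusted p = 0.0162). Its call was lost without KO line 13. Here KO line 3 was the nearest to WT, unlike most subunits, for which it was KO line 16. Timmdc1, listed as 4930455C21Rik, and Atp5sl, now named Dmac2, fell by 0.39 and 0.54 on the log2 scale. Ecsit, which also acts in Toll-like receptor signalling, rose by 0.43. For complex V, Tmem70 fell by 0.72 and Atpaf2 by 0.34, while Atpaf1 (log2 fold change 0.00) and Fmc1, listed as 1110001J03Rik (-0.50), were not called.

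The complex II factors Sdhaf2, which inserts the flavin into Sdha, and Sdhaf4, listed as 1110058L19Rik, fell by 0.40 and 0.66 on the log2 scale. Sdhaf1 and Sdhaf3, listed as Acn9, had log2 fold changes of -0.13 and -0.50 and were not called. For complex III, Uqcc1, listed as Uqcc, fell by 0.35 and Bcs1l, which inserts the Rieske protein, by 0.31. Lyrm7 was not called at -0.44. Ttc19, which clears fragments of the processed Rieske protein, rose by 0.42, from 49.9 to 52.1 CPM in WT lines to 58.6 to 79.6 CPM in lines labelled KO. Most of these changes were small, and the calls of Sdhaf2, Sdhaf4, Uqcc1, Bcs1l, Ttc19, Ecsit, Timmdc1, Atp5sl and Atpaf2 were each lost without at least 1 line: that of Bcs1l without any 1 of the 6, that of Ecsit without any 1 but KO line 3, those of Timmdc1 and Atpaf2 without WT line 3, WT line 19, KO line 13 or KO line 16, those of Ttc19 and Atp5sl without WT line 3, WT line 8, WT line 19 or KO line 13, and the other 3 without WT line 3, WT line 8 or KO line 13. With all lines kept, the call of Bcs1l was also lost in 6 fits with another scaling, filter or the DESeq2 Wald test, that of Atpaf2 without a filter on low counts, and those of Sdhaf2 and Sdhaf4 after the length and GC correction.

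The 3 matched symbols that are not subunits moved in both directions. Atp5s, a coupling factor now named Dmac2l, fell from 12.2 to 14.4 CPM in WT lines to 4.81 to 9.14 CPM in lines labelled KO (log2 fold change -1.01, SE 0.23, edgeR adjusted p = 0.0077), and Atp5sl is given above with its complex. Cox4nb, now named Emc8 and part of a membrane protein insertion complex of the endoplasmic reticulum, was the only member that rose: 67.5, 71.1 and 67.1 CPM against 90.0, 93.0 and 92.7 CPM (log2 fold change 0.42, SE 0.09, edgeR adjusted p = 0.0072). The call was lost without WT line 3. Its exons overlap those of Cox4i1 on the opposite strand, and Cox4i1 moved the other way.

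Subunits and partner proteins whose symbols the pattern does not catch numbered 6, of which 4 fell (66.7%, beside 20.4% of all genes). Ndufab1, the acyl carrier protein of complex I, fell by 0.61 on the log2 scale, Cycs, cytochrome c, by 0.60, and the small complex V proteins Usmg5 and 2010107E04Rik by 0.93 and 0.57. The calls of Cycs and 2010107E04Rik were lost without WT line 3, WT line 8 or KO line 13, and that of Cycs also without KO line 3 and after the length and GC correction described below. Cyc1, the cytochrome c1 of complex III, and Atpif1, the inhibitor of ATP synthase, were not called, with log2 fold changes of 0.12 and 0.30.

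None of the regulators of these genes and of mitochondrial DNA was called lower. Of 14 tested, 4 rose (28.6%, beside 21.8% of all genes) and 0 fell. DESeq2 and limma-voom also called 0 lower, an unadjusted edgeR p under 0.05 was reached by 0 lower genes, and limma-voom with sample weights called 1. Polg, the mitochondrial DNA polymerase, was at 190.3, 151 and 194 CPM in the WT lines and 288, 321 and 305 CPM in the lines labelled KO (log2 fold change 0.77, SE 0.12, edgeR adjusted p = 0.0013). Pprc1, a coactivator of the PGC-1 family, rose by 0.61, and Gabpb2, a subunit of GABP, by 0.55, a call lost without WT line 8 or WT line 19; its change was 0.37 without KO line 3 and 0.35 with WT line 19 and KO line 3 both left out. Nrf1, the activator whose binding sequence is shown above, was at 71.6, 69.3 and 70.5 CPM against 83.7, 89.2 and 86.2 CPM. It was thus higher in each line labelled KO by a small amount (log2 fold change 0.29, SE 0.10, edgeR adjusted p = 0.0339), a call lost in 8 of the 17 alternative fits. Tfam, Ppargc1a, Esrra, Yy1 and the other 5 were not called.

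Enzymes of pyruvate oxidation and the TCA cycle, which supply the electrons, were mixed. Of 17 tested, 4 fell (23.5%, close to the 20.4% of all genes) and 2 rose, and the median log2 fold change was -0.04. Sucla2, a subunit of succinyl-CoA synthetase, was at 111, 105 and 95.9 CPM in the WT lines and 64.5, 47.8 and 54.7 CPM in the lines labelled KO (log2 fold change -0.90, SE 0.13, edgeR adjusted p = 8.84e-04). Dld, the dehydrogenase subunit common to the 2-oxoacid dehydrogenases, fell by 0.72 and the fumarase gene Fh1 by 0.54. Idh2, the mitochondrial NADP-dependent isocitrate dehydrogenase, rose from 88.4 to 110.1 CPM to 132 to 187 CPM (log2 fold change 0.66), and Suclg2, which forms the other succinyl-CoA synthetase with Suclg1, by 0.51. The call of Fh1 was lost without WT line 3, WT line 8 or KO line 13, and that of Suclg2 without WT line 3, WT line 19 or KO line 16, and with WT line 19 and KO line 3 both left out.

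Subunit genes differed in exonic length, and those under 1 kb had the lowest median log2 fold change of 4 length classes. Over the 75 tested subunit genes, Spearman's rho between log2 fold change and exonic length was 0.33, a description across genes that share the same 6 libraries; over 13771 genes with a length it was 0.05. Of 17 subunit genes under 1 kb of exon 9 fell, against 15.8% of all tested genes of that length. From 1 to 2 kb it was 13 of 30 against 19.6%, from 2 to 4 kb 5 of 18 against 21.6%, and from 4 kb upwards 5 of 10 against 20.2%. When trends on length and GC content were removed from each library, 37 members were called lower (26.0% of all genes in that fit), 30 of them also called without the correction, and the median over the members was -0.39. Calls lost there were those of Uqcrb (log2 fold change -0.22 after the correction), Cox7b (-0.34), Cox7c (-0.11) and Ndufc1 (-0.32) among the members, and of Cycs (-0.27), Sdhaf2 (-0.26), Sdhaf4, listed as 1110058L19Rik (-0.45), and Nrf1 (0.12) outside them. Atp5s (-0.63), Ndufaf4 (-0.44) and Dld (-0.43) kept the call with a change over 1.5 times smaller.

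**Figure D5:**
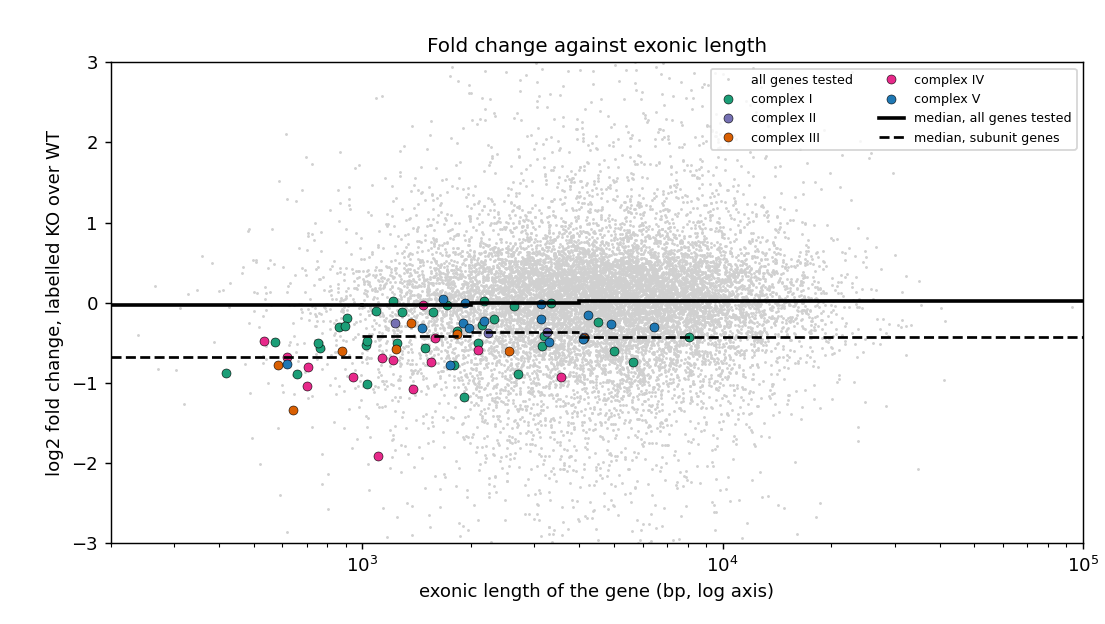
Log2 fold change, libraries labelled KO over WT, against exonic length on a log axis, for all tested genes (grey; those beyond 3 in either direction are not drawn) and the 75 subunit genes coloured by complex. Solid and dashed lines are the medians in the length classes used in the text: that of subunit genes is -0.68 under 1 kb and -0.43 from 4 kb upwards, while that of all genes stays between -0.03 and 0.02.

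Other RNAs differed between the same libraries. Of 9 astrocyte markers 6 were called lower, beside 20.4% of all genes. The summed level of the 9 was 579 to 940 CPM in WT libraries and 187 to 239.8 CPM in libraries labelled KO, with none at 0. Neuronal markers were higher for 3 of 6 tested, beside 21.8% of all genes (summed 792 to 1001 CPM against 1081 to 1659 CPM). Most of that sum was Map2, listed as Mtap2, at a mean of 907 CPM in WT and 1289 CPM in KO. Dcx and Snap25 were also called higher, at means of 11.3 and 6.63 CPM in KO. Tubb3, Rbfox3 and Syt1 were not called, and Stmn2 had no counts in WT line 19 and KO line 13. Oligodendrocyte lineage markers were higher for 3 of 5 tested, beside 21.8% of all genes (58.4 to 65.0 CPM against 100.4 to 107 CPM). Mbp had no counts in any WT library. Sums for microglia (0.48 to 1.34 CPM over all libraries), erythroid cells (0.878 to 2.06 CPM), fibroblasts (1.02 to 4.38 CPM) and endothelium (4.43 to 8.98 CPM) were low, and Tmem119, Hba-a1 and the beta-globin row were at 0 in every library.

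Of 6 abundant cytoplasmic messages, 1 rose, beside 21.8% of all genes, and the other 5 were not called. The 6 summed to 3155 to 4301 CPM in WT and 3971 to 5238 CPM in libraries labelled KO. Actb was the gene that rose, at 665 to 853 CPM in WT against 992 to 1393 CPM. Of 6 nuclear RNAs, Neat1 was higher and Snhg11 lower, beside 21.8% and 20.4% of all genes. The ribosomal precursor Rn45s stood at 18739 CPM in WT line 19 and at 1078 to 2568 CPM elsewhere. The part of these differences in the levels of the respiratory genes was not tested.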

How the data were processed

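The authors deposited raw read counts per gene symbol for 6 libraries of nuclear RNA, 3 labelled WT and 3 labelled KO, not normalized. The submitters' processing notes name build mm10 and the tools STAR, DESeq2, HTSeq 0.7.2 and cutadapt 1.14; for annotation and strand setting nothing is stated in the labels or file headers. Counts were tested in R 4.3.3 with edgeR 4.0.16: filterByExpr, TMM scaling (a trimmed mean of log ratios), a robust quasi-likelihood fit of KO against WT over the 6 libraries, and two-sided p-values adjusted by Benjamini-Hochberg over 13925 tested genes, with a threshold of 0.05. "Called", "fell" and "rose" mean past that threshold. CPM values are on the TMM scale, and SD, SE and n refer to 3 libraries per group. The procedure was tested on simulated data.

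Positions, exonic lengths (all exons of a gene merged) and shared sequence (50-base stretches of transcripts) came from GENCODE mouse release 21, and promoters from RefSeq, GRCm38.p6. Of the symbols, 20961 matched GENCODE directly, 1905 through a synonym and 471 did not match. Shares within a subunit are over raw counts; floors cover counting error only.

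The members and lists were chosen with earlier results of these data known. Genes were named by a rule: in each complex up to 4 called members without overlap by size of change, the 2 highest in CPM per kilobase of exon and the 2 closest to no change, all alternative forms with their partners, up to 4 genes of each other list by smallest p, and Fmr1. Not every gene under this rule is reported here. Other genes given with values, such as Ndufs1, Uqcrc1, Cox6c, Atp5s and Cox4nb, were named after their values were seen. Alternatives were the size factors of DESeq2 1.42.0, upper-quartile scaling, library size alone, other filters, the DESeq2 Wald test, limma-voom (limma 3.58.1) without and with sample weights, a threshold of 0.10, removal of length and GC trends, and leaving out libraries.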

Additional observations from a re-analysis of the deposited data

How the results depend on the processing

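The median log2 fold change of the members, of each complex and of the assembly factors kept its sign in all 17 alternative fits. The counts of called genes moved more. With sample weights in limma-voom, 56 members were lower (29.5% of all genes were, against 20.4% in the edgeR fit), with 21 in complex I, 4 in complex II and 9 in complex V, and 28 assembly factors; weights reduce the influence of libraries that stand apart. With WT line 19 and KO line 3 both left out, 46 members were lower, with 4 in complex II and 7 in complex V, and 23 assembly factors. In this fit the label cannot be told apart from the Xist level. Complex V had 4 lower genes with DESeq2 size factors, in the DESeq2 Wald test, at a threshold of 0.10 and after removal of length and GC trends. Complex II had 1 in the DESeq2 Wald test, and at a threshold of 0.10 only Sdha passed. With no filter on low counts, and with WT line 19 and KO line 3 both left out, 2 members were higher, 1 of them in complex IV (Cox6a2).

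Leaving out 1 library at a time gave 19 to 52 lower and 1 to 2 higher members. By complex the lower genes were 8 to 22 in I, 1 to 3 in II, 1 to 7 in III, 6 to 12 in IV (with 0 to 1 higher) and 2 to 6 in V, and assembly factors were 4 to 18 lower and 1 to 3 higher. The cause of these shifts was not tested. Of 42 named genes that were called, 20 kept the call in every alternative and 22 lost it in at least 1.

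Direction turned in 8 named genes, all of them uncalled. Ndufa10 stood at -0.0031 with DESeq2 size factors and in the Wald test, -0.0018 with upper-quartile scaling, -0.013 with library size alone, -0.0098 and -0.0601 in limma-voom without and with weights, and -0.038 with length and GC trends removed. Atpaf1 stood at -0.0076, -0.0087, -0.0198, -0.0081, -0.0295 and -0.15 with DESeq2 size factors, upper-quartile scaling, library size, the Wald test and limma-voom without and with weights, at -0.0080 with trends removed and at -0.22 without WT line 19 and KO line 3. Ndufb10 was -0.022 in weighted limma-voom. Removal of trends gave 0.0616 for Cox7a2l and 0.0837 for Fmr1. Atp5d was 0.0033 with a filter of 1 CPM in 3 libraries and 0.0928 without WT line 19 and KO line 3. Leaving out 1 library at a time gave -0.15 to 0.10 for Ndufa10, -0.16 to 0.16 for Ndufb10, -0.13 to 0.0752 for Cox7a2l, -0.15 to 0.0746 for Atp5a1, -0.23 to 0.13 for Atp5d, -0.49 to 0.0295 for Sdhaf1, -0.18 to 0.0928 for Atpaf1 and -0.58 to 0.14 for Fmr1.

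No paired analysis was possible because the groups share a single line number, 3, which names different lines. With counts divided by exon length, the mean share within the subunit in WT and KO was 27.3% and 15.0% for Cox6b2, 2.51% and 2.88% for Cox7a1, 6.72% and 6.44% for Atp5g1, 9.59% and 11.4% for Atp5g2 and 83.7% and 82.1% for Atp5g3, and 0.403% in KO for Cox4i2. Depth limits the rows near 3 counts, such as Cox6a2.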
